A study of Mus musculus with 11 samples.

Results

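Kdr, Eln, Col25a1, Has3 and Ndp are 5 mouse genes of vessel wall signalling and of the matrix around cells, each measured by 1 spot on a liver array, and all 5 were among the 3558 genes that could be tested. They were picked by name with the differences between the study groups already known, so their own differences are given as a description and without a test. Each of them had an adjusted p under 0.05 in at least 1 of the 3 comparisons below, which is a property of the choice.

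Liver RNA came from C57/BL/J6 mice in 3 groups, with 1 array per mouse. Control mice (4 arrays) ate a chow with 6.5% fat, 49% carbohydrate and 23% protein for 10 weeks. In the high-fat group the feed held 42.16% fat, 42.81% carbohydrate and 15.02% protein, also given for 10 weeks, and fasted mice (3 arrays) ate the same diet and had no food for the last 48 h. The high-fat group has 4 arrays, of which 3 were used, because array 4 had a correlation between -0.03 and 0.01 with the others, while the other 10 correlated with each other at 0.69 to 0.94. The sources used here give no sex or age, and list 9 control, 5 high-fat and 4 fasted mice, more than there are arrays.

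Values are log2 ratios of liver RNA (Cy5) over a universal mouse reference RNA (Cy3) after each array was centred on its median, so 0 is the middle filled spot of that array. The base of the logarithm is taken as 2. Between 3864 and 5567 of 17280 spots per array held a value. The spread of ratios within an array, as the median absolute deviation, was 0.26 to 0.39 on high-fat arrays, 0.43 to 0.52 on control arrays and 0.44 to 0.49 on fasted arrays, so ratios on high-fat arrays lay closer together, and differences are also given after arrays were scaled to a common spread. The livers carried hepatocyte transcripts: the mean ratio of 13 hepatocyte markers lay between 1.62 and 2.82 on control arrays, 1.17 and 1.52 on high-fat arrays and 1.29 and 1.40 on fasted arrays.

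Vascular endothelial growth factor binds the receptor tyrosine kinase encoded by Kdr (VEGF receptor 2), which drives growth and survival of endothelial cells, and in liver these cells line the sinusoids. Norrin, the product of Ndp, is a secreted ligand that acts through the receptor Frizzled-4 on vessels of the retina and brain. Outside the cells, Eln encodes tropoelastin, the soluble unit that is cross-linked into elastic fibres, Col25a1 a membrane-bound collagen whose shed ectodomain was found in amyloid plaques, and Has3 one of the enzymes that spin hyaluronan from nucleotide sugars at the cell surface.

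The bases upstream of the start sites are shown as a description, and their part in the differences was not tested. Kdr and Col25a1 shared a direction in every comparison while Ndp did not (with arrays scaled or quantile normalized, Col25a1 turned below 0 with the fast). RefSeq promoters (build GRCm38.p6) were matched by symbol for 3 of the 5 genes, and each sequence below is the 250 bases before the start site, 5′ to 3′ on the gene's strand. Capitals mark matches on either strand to any of 9 motifs. Eln and Has3 had no entry.
Kdr: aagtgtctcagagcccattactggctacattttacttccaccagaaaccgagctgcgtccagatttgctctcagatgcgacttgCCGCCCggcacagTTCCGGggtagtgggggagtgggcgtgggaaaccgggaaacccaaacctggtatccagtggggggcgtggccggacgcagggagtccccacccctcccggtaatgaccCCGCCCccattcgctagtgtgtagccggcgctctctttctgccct
Col25a1: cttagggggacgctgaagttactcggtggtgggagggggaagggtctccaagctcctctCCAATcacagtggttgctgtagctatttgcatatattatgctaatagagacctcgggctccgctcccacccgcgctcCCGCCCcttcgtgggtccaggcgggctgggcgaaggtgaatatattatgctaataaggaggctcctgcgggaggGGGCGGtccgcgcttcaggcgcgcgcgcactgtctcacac
Ndp: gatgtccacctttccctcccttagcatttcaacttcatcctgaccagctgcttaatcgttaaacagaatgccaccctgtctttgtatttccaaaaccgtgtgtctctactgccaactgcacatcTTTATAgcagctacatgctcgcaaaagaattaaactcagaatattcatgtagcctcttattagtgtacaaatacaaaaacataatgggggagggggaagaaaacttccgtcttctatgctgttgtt

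The Kdr stretch lies at chr5:75978456-75978705 on the minus strand, the Col25a1 stretch at chr3:130180595-130180844 on the plus strand and the Ndp stretch at chrX:16911775-16912024 on the minus strand. The upstream bases of Kdr and Col25a1 were 61.6% and 60.4% G or C with 16 and 18 CpG dinucleotides, those of Ndp 41.2% with 4, and the median over 32851 promoters was 52.4%. Kdr and Col25a1 each held 2 GC boxes (GGGCGG), whose first bases were at -166 and -45 in Kdr and at -114 and -40 in Col25a1. At least 1 such box is held by 32.7% of all promoters. Kdr also held an ETS core (CCGGAA, 12.0% of promoters) at -153 and Col25a1 a CCAAT box (CCAAT, 33.8%) at -191. The Ndp stretch held none of these and had 1 TATA box (TATAAA, 12.4%) at -126. No match was found in these windows to an AP-1 motif (TGANTCA, 6.7%), a hypoxia response core (ACGTG, 16.6%), a forkhead motif (TGTTTAC, 3.2%), a nuclear receptor half-site (AGGTCA, 14.0%) or an E-box (CACGTG, 6.0%), which contains the hypoxia response core. A match is a string of letters and no evidence of binding.

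**Figure D1:**
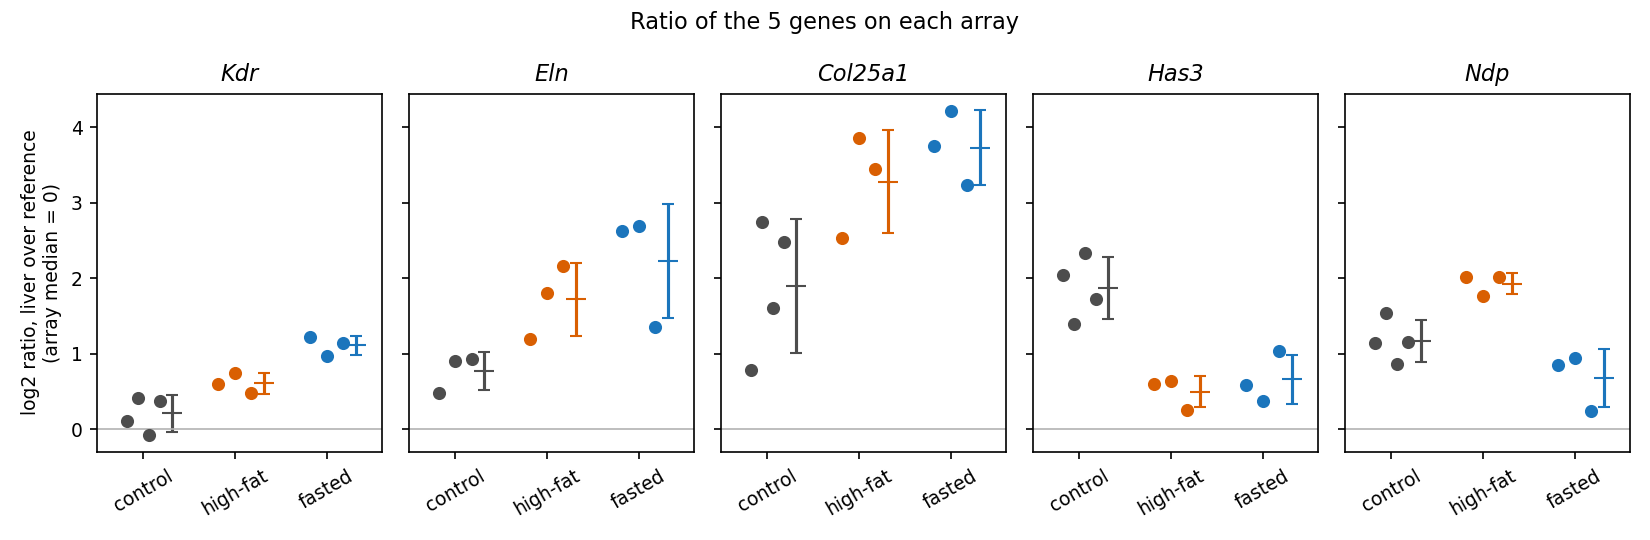
Log2 ratio of liver over reference, with the array median at 0, for the 5 genes. Each point is 1 array (1 mouse) and the bar beside each group is its mean ± SD. Kdr lay lowest in control and highest in fasted livers with no overlap, Has3 lay highest in control, and Ndp highest in high-fat livers.

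The order of the groups differed between the genes. Kdr, Eln and Col25a1 had their lowest mean in control and their highest in fasted livers (with arrays scaled Eln and Col25a1 were highest in high-fat livers), Has3 had its highest mean in control livers, and Ndp had its highest in high-fat livers. Ratios were above the array median on every filled array for Eln, Col25a1, Has3 and Ndp and on 9 of 10 arrays for Kdr, so each of the 5 spots gave more liver than reference signal relative to the middle spot.

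Kdr was the gene with the clearest steps. Its ratios were 0.11, 0.42, -0.08 and 0.38 on control arrays 1 to 4, 0.60, 0.75 and 0.48 on high-fat arrays 1 to 3, and 1.22, 0.97 and 1.14 on fasted arrays 1 to 3. The 3 groups did not overlap, with a gap of 0.06 between control and high-fat and of 0.22 between high-fat and fasted arrays. Of all 3558 genes tested, 22 (0.618%) were ordered upward in this way without overlap. Group means were 0.21 ± 0.24 (SD, n = 4), 0.61 ± 0.14 (n = 3) and 1.11 ± 0.13 (n = 3). The difference was 0.40 ± 0.15 (SE) for high-fat minus control, 0.50 ± 0.16 for fasted minus high-fat and 0.90 ± 0.15, or 1.87-fold, for fasted minus control.

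The step from control to high-fat was the least settled of these. With array 4 included, on which Kdr was the only one of the 5 genes with a value (-1.03), high-fat minus control turned to -0.01. The rows next to Kdr in the file also differed between the groups: over the 2 to 5 filled rows among 10 on each side, the median was higher by 0.35 in high-fat and by 0.44 in fasted than in control livers. After these neighbours were subtracted Kdr had 0.05 for high-fat minus control and 0.46 for fasted minus control. Whether neighbouring rows are neighbours on the array is not given in the sources used here, and their part in the Kdr values was not tested.

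Other endothelial transcripts were set beside Kdr, since in bulk liver more cells of a type and more RNA per cell cannot be told apart. Of 54 pan-endothelial markers 49 had a spot and 8 could be tested, and apart from Kdr 0 of these passed by limma in any comparison (0 or 1 of 7 had an unadjusted p under 0.05). The other 7 had differences between -0.19 (Cav1, of caveolae) and 0.34 (Selp, P-selectin) for fasted minus control, with a median of -0.09 against 0.02 over all genes tested. With the diet, where Kdr had 0.40, they ran from -0.35 (Acvrl1, limma adjusted p = 0.208) to 0.48 (Selp, limma adjusted p = 0.0651). Their median with the diet was 0.08, as over all genes. The mean ratio of the 5 of them filled on all 10 arrays was -0.11 to 0.05 on control, -0.04 to 0.10 on high-fat and -0.08 to 0.16 on fasted arrays, so the groups overlapped. Pecam1 and Tek, which define endothelium, were empty on all 10 arrays, and Cdh5 was filled on 5, none of them fasted.

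Among 26 markers of liver sinusoidal endothelium 5 could be tested, and Bmp2, a secreted bone morphogenetic protein that these cells supply, rose between control and fasted livers. Its ratios were 1.09, 1.92, 1.33 and 1.71 on control, 1.90, 2.44 and 1.76 on high-fat and 2.25, 2.57 and 2.37 on fasted arrays. Fasted arrays all lay above control arrays, by 0.88 ± 0.21 (SE, limma adjusted p = 0.0460). The call is close to the threshold: it held in 9 of 22 other analyses, with an adjusted p from 0.00920 to 0.272, and was lost with arrays scaled and without control array 1 or 3, any single fasted array, or high-fat array 1 or 3. Over the 5 genes, 2 were higher and 3 lower for fasted minus control, with a median of -0.09, and 4 had an unadjusted p under 0.05. Ehd3, an endocytosis gene of these cells, was lowest at -0.61 (adjusted p = 0.182). Wnt2, which sinusoidal endothelium of the central zone secretes, had -0.36 with the diet and -0.52 for fasted minus control without passing (adjusted p = 0.292 and 0.169).

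The VEGF pathway around Kdr was thinly filled. Of its 48 listed genes 41 had a spot and 10 could be tested, and other than Kdr 0 passed by limma (1 or 2 of 9 had an unadjusted p under 0.05). The sister receptor Flt1 and the ligand Vegfc were empty on all 10 arrays, and Vegfa was filled on 4. Vegfb, a ligand of Flt1, had 0.28 with the diet and -0.53 with the fast (adjusted p = 0.569 and 0.399). Hif1a, the oxygen-regulated factor upstream of Vegfa, had 0.17 and -0.34 (adjusted p = 0.432 and 0.294).

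Ndp differed from Kdr in shape. Its ratios were 1.14, 1.54, 0.86 and 1.16 on control, 2.02, 1.77 and 2.01 on high-fat and 0.85, 0.95 and 0.24 on fasted arrays. High-fat arrays lay above all others, by at least 0.23 over control and 0.82 over fasted arrays, while control and fasted arrays overlapped. The means were 1.17 ± 0.28 (SD, n = 4), 1.93 ± 0.14 (n = 3) and 0.68 ± 0.38 (n = 3), so the difference was 0.76 ± 0.20 (SE) with the diet and -1.25 ± 0.21 with the fast. The high-fat arrays enter both comparisons, once added and once subtracted. With arrays scaled to a common spread they were 1.44 and -1.87, and the direction of each was the same in all 22 other analyses. The fasted minus control difference of -0.49 ± 0.20 was -0.28 without fasted array 3.

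Of 29 genes of norrin and Frizzled-4 signalling 8 could be tested, and the receptor Fzd4 and the co-receptor Lrp5 were empty on all 10 arrays. Csnk1a1, a casein kinase that primes beta-catenin for breakdown, passed only as an average over its 3 spots. No spot of it that could be tested alone passed, and 1 spot, empty on all control arrays, could not be tested. The average differed by -0.98 ± 0.22 (SE, limma adjusted p = 0.0285) with the diet and by -1.12 ± 0.22 (adjusted p = 0.0249) for fasted minus control, and these calls held in 13 and 15 of 22 other analyses. Different spots were filled on different arrays: the spot with the highest ratios was filled on all 10, while another, at -1.08 to -0.57, was empty on all 4 control arrays and so entered the average on high-fat arrays 2 and 3 and the fasted arrays only. The spot filled on all arrays had 1.54, 2.18, 1.34 and 1.27 on control, 0.82, 0.77 and 1.06 on high-fat and 1.02, 0.97 and 1.08 on fasted arrays. All its control values lay above the others, with differences of -0.70 with the diet and -0.56 for fasted minus control (limma adjusted p = 0.0571 and 0.132). The third spot had -0.07 and -0.29 (adjusted p = 0.868 and 0.502). The calls on the average were also lost under quantile normalization, with arrays scaled, with only 2 groups in the fit and after subtracting neighbouring rows, the first also without control array 1 or 3 or high-fat array 2 or 3, and the second without fasted array 1 or 2. The other 6 tested genes lay between -0.36 (Wnt2) and 0.24 (Apcdd1, a Wnt inhibitor) with the diet. With the fast, 2 of the 7 genes other than Ndp were higher and 5 lower. They ran from -0.72 (Btrc, adjusted p = 0.0910) to 0.47 (Sfrp1, adjusted p = 0.279), with a median of -0.13 against -0.05 over all genes. By limma 1, 2 and 3 of these 7 had an unadjusted p under 0.05 with the diet, with the fast and for fasted minus control.

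**Figure D2:**
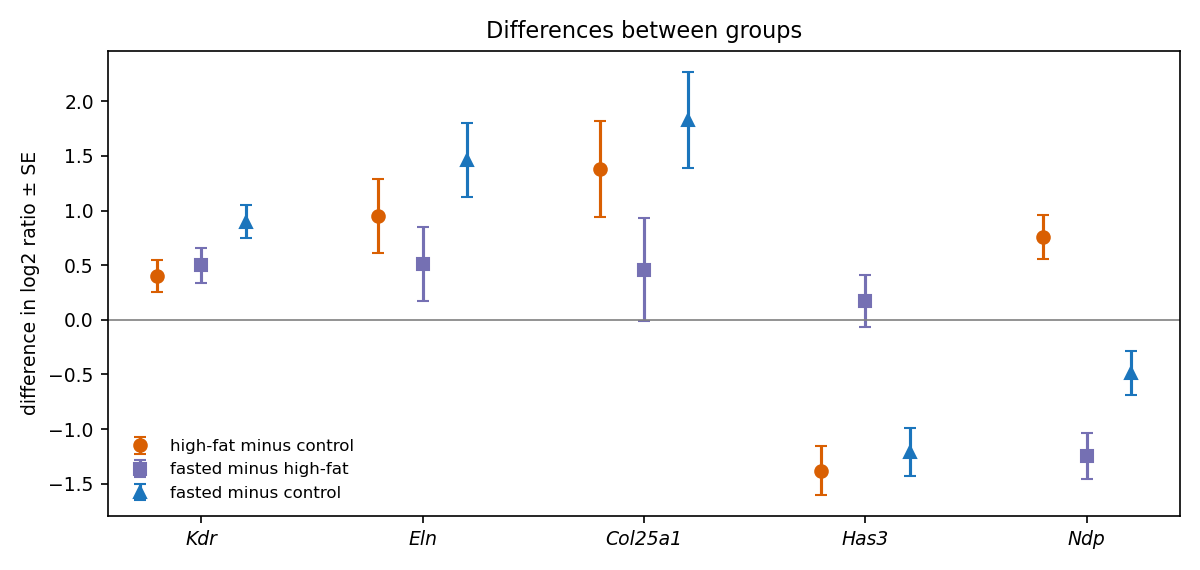
Difference in log2 ratio between groups for the 5 genes, with bars of ± SE from the linear model (4 control, 3 high-fat and 3 fasted arrays). Kdr, Eln and Col25a1 lie above 0 in all 3 comparisons (with arrays scaled, Eln and Col25a1 had -0.08 and -0.68 with the fast), Has3 lies at -1.38 and -1.21 against control, and Ndp changes sign between the diet (0.76) and the fast (-1.25).

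Eln was filled on 9 of the 10 arrays and empty on control array 3. Its ratios were 0.48, 0.90 and 0.93 on control arrays 1, 2 and 4, 1.20, 1.80 and 2.16 on high-fat and 2.63, 2.69 and 1.36 on fasted arrays. Both high-fat and fasted arrays lay above control, by at least 0.27 and 0.43, but overlapped each other because of fasted array 3. Means were 0.77 ± 0.25 (SD, n = 3), 1.72 ± 0.48 (n = 3) and 2.23 ± 0.75 (n = 3). The difference was 0.95 ± 0.34 (SE) with the diet, 0.51 ± 0.34 with the fast and 1.46 ± 0.34, or 2.74-fold, for fasted minus control. The fast difference was 0.94 without fasted array 3 and -0.08 with arrays scaled.

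Other elastic fibre genes had values of the other sign between control and fasted livers, and 0 passed by limma in any comparison (0 to 2 of 3 had an unadjusted p under 0.05). Of 32 listed genes 26 had a spot and 4 could be tested: Eln, the fibulins Fbln2 and Fbln5, and the microfibril-associated Mfap4. For fasted minus control Eln had 1.46, while Fbln2, Fbln5 and Mfap4 had -0.20, -0.42 and -0.22 (adjusted p of 0.501, 0.492 and 0.444). With the diet these 3 had the sign of Eln, at 0.29, 0.03 and 0.45 (adjusted p of 0.253, 0.966 and 0.0736). With the fast these 3 had -0.49, -0.45 and -0.67 (adjusted p of 0.208, 0.546 and 0.103). The cross-linking enzyme Lox was filled on 3 of the 10 arrays and Loxl1 on 0.

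Col25a1 had the widest spread among control mice. Its ratios were 0.78, 2.74, 1.60 and 2.48 on control, 2.53, 3.86 and 3.44 on high-fat and 3.75, 4.22 and 3.23 on fasted arrays. Fasted arrays lay above control by at least 0.49, whereas high-fat array 1 lay below control array 2, so those groups overlapped. Means were 1.90 ± 0.89 (SD, n = 4), 3.28 ± 0.68 (n = 3) and 3.73 ± 0.50 (n = 3). The difference was 1.38 ± 0.44 (SE) with the diet, 0.46 ± 0.47 with the fast and 1.83 ± 0.44, or 3.56-fold, for fasted minus control. With arrays scaled the first 2 became 2.39 and -0.68, and the diet difference was 1.00 without control array 1.

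Of 41 collagens, 39 had a spot and 13 could be tested, and apart from Col25a1 0 passed by limma (0 to 4 of 12 had an unadjusted p under 0.05). For fasted minus control the other 12 had 6 higher and 6 lower values with a median of -0.05. Col15a1, a collagen of vascular basement membrane zones, lay farthest from Col25a1 at -2.15 ± 0.53 (SE, limma adjusted p = 0.0508, and 0.0109 to 0.198 in 22 other analyses, 6 of which called it). Its ratios were 2.30, 1.29, 3.02 and 2.13 on control, 1.30, 1.03 and 0.29 on high-fat and -0.78, -0.70 and 1.58 on fasted arrays, so fasted array 3 lay among the control arrays. Col13a1 and Col23a1, membrane-bound collagens like Col25a1, had -0.11 and 0.02 (adjusted p of 0.694 and 0.972). Col1a2, a chain of the main fibrillar collagen of scar, had 0.56 with the diet (adjusted p = 0.0810) and 0.23 for fasted minus control (adjusted p = 0.566), while Col1a1 and Col3a1 held a value on 0 of the 10 arrays. Of 27 collagen-processing genes 4 could be tested and 0 passed by limma (1 or 2 had an unadjusted p under 0.05), with P4hb, a subunit of prolyl 4-hydroxylase and a disulfide isomerase, at 1.50 and P3h1, a prolyl 3-hydroxylase, at 0.39 with the diet (adjusted p of 0.180 and 0.118).

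Has3 was lower in both groups that ate the high-fat diet. Its ratios were 2.04, 1.39, 2.34 and 1.72 on control, 0.60, 0.64 and 0.25 on high-fat and 0.58, 0.38 and 1.03 on fasted arrays. All control arrays lay above the others, by at least 0.75 over high-fat and 0.36 over fasted arrays, and high-fat and fasted arrays overlapped. Means were 1.87 ± 0.41 (SD, n = 4), 0.50 ± 0.21 (n = 3) and 0.66 ± 0.33 (n = 3). The difference was -1.38 ± 0.22 (SE) with the diet, 0.17 ± 0.24 with the fast and -1.21 ± 0.22 for fasted minus control. Both differences from control kept their sign in all 22 other analyses, within -1.54 to -1.01 and -1.39 to -1.03, and the fast difference ran from -0.07 to 0.37. The same control arrays enter both differences from control.

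Of 15 hepatocyte markers tested, 14 had a lower mean in high-fat than in control livers and 3 fell (Cyp3a11 and Cyp2c29, enzymes of drug oxidation, at -1.98 and -1.72, and the lipoprotein gene Apoa1, whose adjusted p of 0.0480 was under 0.05 in 4 of 22 other analyses), with a median of -0.59 against 0.08 over all genes. With the diet that shift depended on the scaling. The median was 0.01 with 8 of 15 higher under quantile normalization and 0.13 with 9 of 15 higher with arrays scaled. In each 2 were called lower, and Has3 had -1.01 and -1.04. Under quantile normalization Has3 was not called with the diet, and with arrays scaled 1 of the 9 tested hyaluronan genes was called lower. For fasted minus control the median of the 15 was -0.61 against 0.02 over all genes, with 3 called lower. It was -0.50 with 4 of 15 higher under quantile normalization and -0.47 with 1 of 15 higher with arrays scaled. In each 1 was called lower, while Has3 had -1.06 and -1.11 and was called in neither. The part of the hepatocyte markers in the Has3 values was not tested. Of the other genes that make, bind or break down hyaluronan 0 passed by limma (0 or 1 of 8 had an unadjusted p under 0.05). Of 40 listed, 32 had a spot and 9 could be tested, and the other 8 lay between -0.44 (Hapln1, a link protein) and 0.29 (Bcan, the proteoglycan brevican) with the diet, with a median of 0.03. Vcan, the hyaluronan-binding proteoglycan versican, had 0.02 with the diet and 0.24 for fasted minus control (adjusted p of 0.963 and 0.396). The other synthases Has1 and Has2, the hyaluronidases Hyal1 and Hyal2 and the receptor Cd44 held a value on 0 of the 10 arrays.

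**Figure D3:**
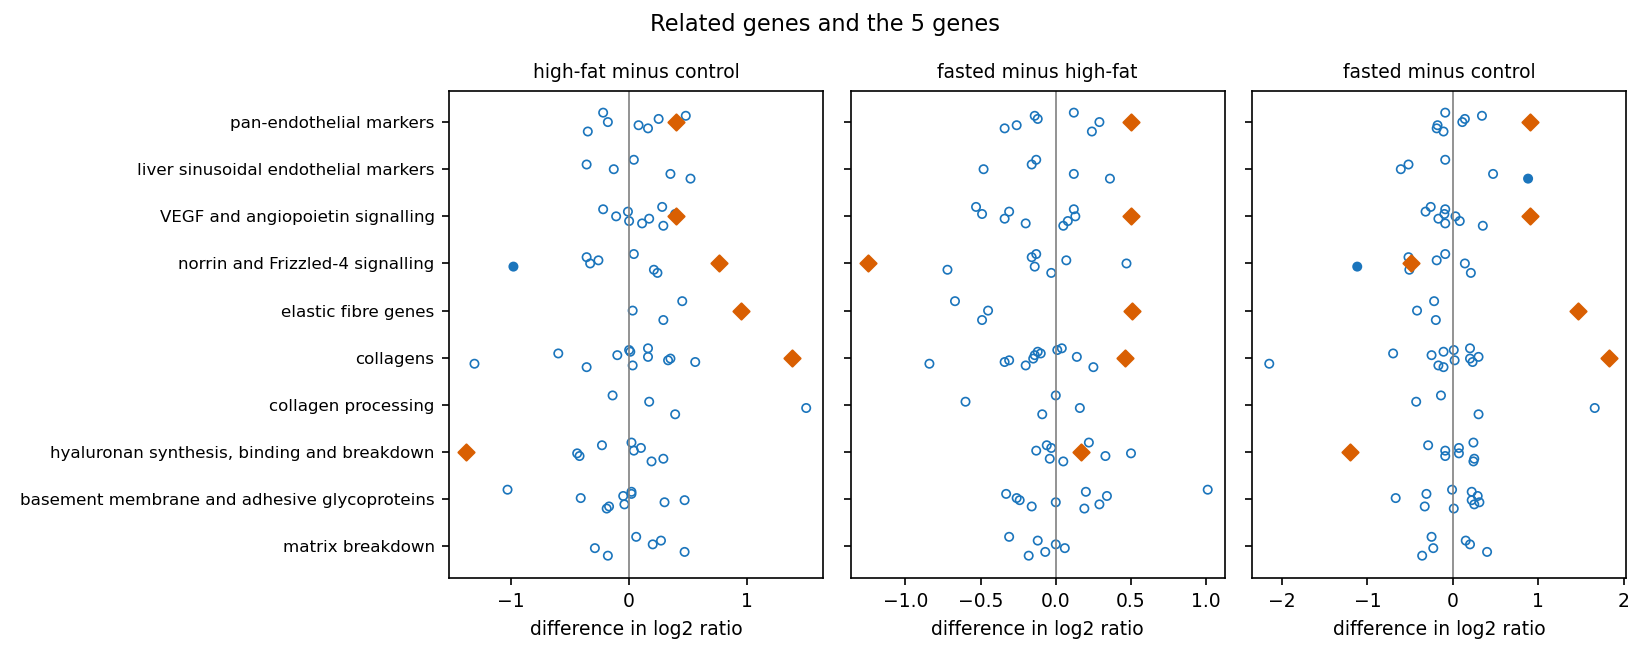
Difference in log2 ratio in each comparison for tested genes of 10 lists. Circles are related genes, filled where the limma adjusted p was under 0.05, and diamonds are the 5 genes. Outside the 5 genes, filled circles mark Bmp2 (0.88) and Csnk1a1 (-0.98 and -1.12 as an average of 3 spots). No Csnk1a1 spot that could be tested alone passed.

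Counts over the 5 genes stand beside the share of all genes with the same property, and nothing is read from them because these comparisons guided the choice. With the diet 2 of 5 had an adjusted p under 0.05, against 4.92% of all genes, and 4 of 5 had groups that did not overlap, against 25.2%. With the fast 1 of 5 was under 0.05, against 0.365%, and 2 of 5 did not overlap, against 28.3%. For fasted minus control 4 of 5 were under 0.05, against 3.20%, and 4 of 5 did not overlap, against 22.0%. With arrays scaled those 4 calls were lost: 0 genes passed for fasted minus control in the lists that hold Kdr, Eln, Col25a1 and Has3. In that setting 10 of all genes were called.

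The 10 lists of the endothelium and matrix were also counted together. Leaving out the 5 genes, 360 were listed, 306 had a spot and 68 could be tested. Of these, 1 passed with the diet (the Csnk1a1 average, 1.47%), 0 with the fast, and 2 for fasted minus control (Bmp2 and the Csnk1a1 average, 2.94%), all by limma, where 4.92%, 0.365% and 3.20% of all genes passed. An unadjusted p under 0.05 was found for 15, 10 and 13 of the 68, or 22.1%, 14.7% and 19.1%, against 25.2%, 14.6% and 20.4% of all genes. Their medians were 0.04, -0.09 and -0.09, against 0.08, -0.05 and 0.02 over all genes. With 0 passing by limma (1 to 3 of 10 at an unadjusted p under 0.05), 40 basement membrane and adhesive genes gave 10 tested members with a diet median of -0.04, led by Vtn, the plasma protein vitronectin (-1.03, adjusted p = 0.0827), and the basement membrane proteoglycan Hspg2 (0.47, adjusted p = 0.228). The 6 tested genes of matrix breakdown had 0 passing (0 to 2 at an unadjusted p under 0.05 by limma) and a diet median of 0.13, led by the metalloproteases Adam12 at 0.47 and Adam15 at -0.29 (adjusted p of 0.176 and 0.195).

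Stellate cells and fibroblasts, the main makers of matrix in liver, were followed by 30 markers, of which 14 could be tested, Eln among them. Nes, the intermediate filament nestin, rose by 0.87 ± 0.20 (SE, limma adjusted p = 0.0367) with the diet, from -0.65, -0.67 and -0.97 on control arrays 2 to 4 to -0.33, 0.22 and 0.44 on high-fat arrays. It was -0.88, -0.55 and -0.88 on fasted arrays, which overlapped with control. The call held in 6 of 20 other analyses, with adjusted p of 0.0165 to 0.286, and was lost with values as deposited, under quantile normalization, with arrays scaled, and without control array 3 or 4, fasted array 1 or high-fat array 2 or 3. Apart from Eln, 8 of the 13 tested markers were higher and 5 lower with the diet, with a median of 0.22 against 0.08 over all genes. By limma 5 of these 13 had an unadjusted p under 0.05 with the diet, where 25.2% of all genes did. For fasted minus control their median was -0.01 against 0.02. The mean ratio of the 6 markers filled on all 10 arrays, which leave out Nes, was -0.21 to 0.09 on control, -0.11 to 0.04 on high-fat and -0.09 to 0.03 on fasted arrays. Acta2, the smooth muscle actin of activated stellate cells, had -0.10 with the diet and 0.17 for fasted minus control (adjusted p of 0.665 and 0.449).

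Other cell types gave fewer measured markers. Of 26 macrophage and Kupffer cell markers 3 could be tested, and Cd163, a scavenger receptor for haemoglobin, rose by 0.66 ± 0.16 (SE, limma adjusted p = 0.0487) for fasted minus control. That call held in 6 of 21 other analyses, with adjusted p of 0.0250 to 0.712, and was lost under quantile normalization, with arrays scaled, without control array 1 or 3 and without any single fasted or high-fat array. Of 13 smooth muscle, 23 lymphocyte and 14 bile duct markers 3, 4 and 1 could be tested and 0 passed by limma (0 or 1, 1 or 2, and 0 or 1 had an unadjusted p under 0.05). Among these were Myh11, smooth muscle myosin, at 0.61, the immunoglobulin gene Ighm at 0.61 (adjusted p = 0.0540) and Sox9, a bile duct factor, at 0.47 with the diet. Of 15 red cell and platelet markers 0 could be tested.

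Genes with the most similar profile over the arrays were named for each of the 5, by Pearson r over at least 9 arrays and among genes with a symbol. The arrays are shared and fall into 3 groups, so a high r here mostly restates the order of the group means, and no p is given. Among 2655 candidates, r with Kdr was highest for Pcdhb16, a protocadherin (0.954), Rnf5, a ubiquitin ligase (0.951), and Copz2, a coatomer subunit (0.938), each over 10 arrays. Pcdhb16 had means of 0.23, 0.64 and 1.01 in control, high-fat and fasted livers, close to the 0.21, 0.61 and 1.11 of Kdr. For Col25a1 they were Mcts1 (0.952), Cd163 (0.940) and D730045A05Rik (0.933), each over 9 arrays, and Mcts1, a translation factor, had means of 1.52, 4.14 and 5.18.

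For Eln, with 2097 candidates over 9 arrays, they were the glycolytic phosphofructokinase Pfkl (0.940), the growth factor Fgf5 (0.933) and the ribosome assembly factor Emg1 (0.927). Has3 was most like 4930578G10Rik (0.923), the Csnk1a1 average (0.919) and the ubiquitin ligase Marchf3 (0.918) over 10 arrays. Ndp was most like the ubiquitin scaffold Cul4a (0.935), the elastic fibre gene Mfap4 (0.934) and Tm9sf1 (0.932) over 9 arrays. With arrays scaled, r of Cul4a with Ndp was 0.52 and r of Emg1 with Eln 0.72, while for Mfap4 and Ndp it was 0.91.

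**Figure D4:**
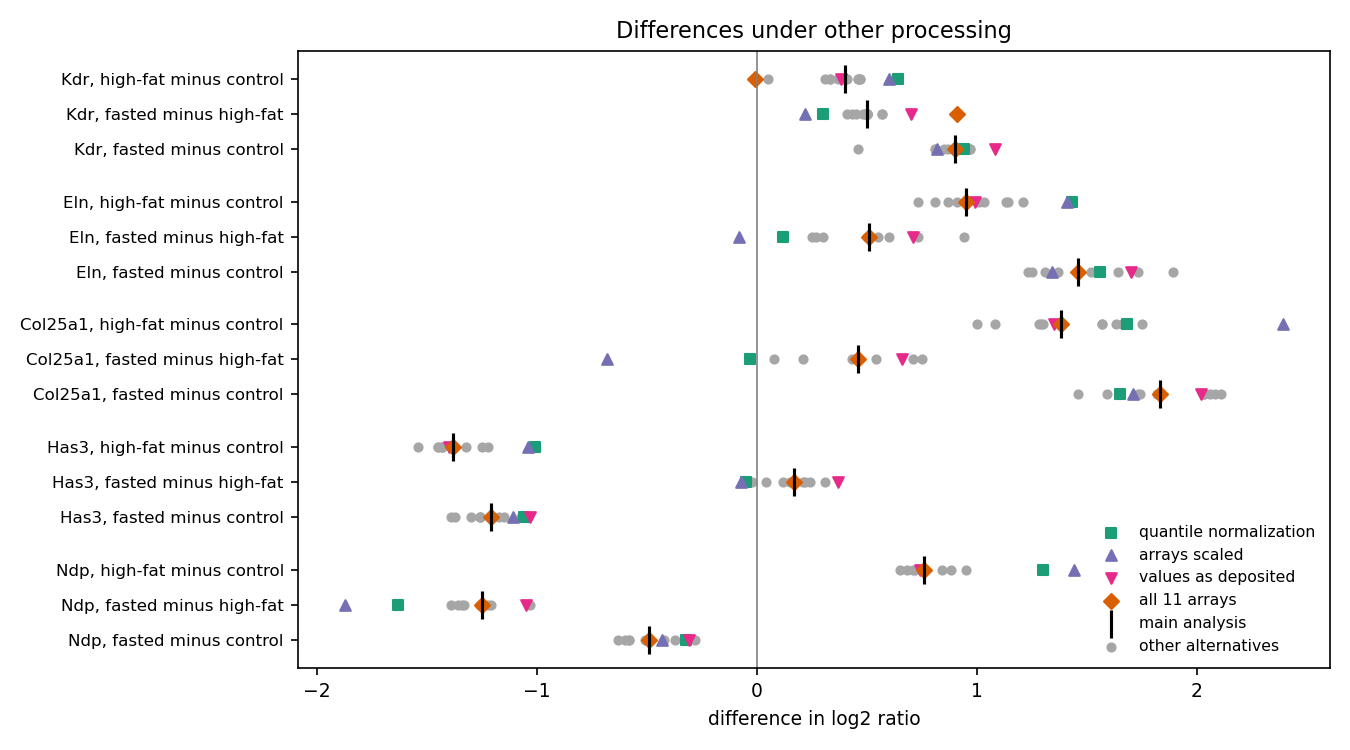
Difference in log2 ratio of each of the 5 genes in each comparison under the main analysis (black bar) and under up to 22 other analyses. Kdr for high-fat minus control reaches -0.01 with all 11 arrays, and the fasted minus high-fat differences of Eln, Col25a1 and Has3 fall below 0 with arrays scaled (-0.08, -0.68 and -0.07).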

How the data were processed

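Liver RNA of 11 mice was hybridised with a common reference on 2-colour arrays, 1 array per mouse, per the labels. The authors deposited 1 log ratio per spot, taken here as log2, with liver (Cy5) over reference (Cy3). How the arrays were scanned, background-corrected and normalized, and why many cells are empty, is not given in the sources used here. Spots were named from the platform's gene table. Each array was centred on its median, spots of a gene were averaged, and genes filled on 2 or more arrays in every group were fitted over 10 arrays with limma 3.58.1 in R 4.3.3 (lmFit, eBayes, Benjamini-Hochberg over 3558 genes, adjusted p under 0.05). Of the genes tested 173 had over 1 filled spot, and for 158 the filled spots differed between arrays, which can move their average (11, 1 and 7 of the genes called with the diet, with the fast and for fasted minus control). Each of the 5 genes has 1 spot. The fit was also run on simulated data in which each gene had the same spread on every array. That run does not cover the unequal spread of the arrays used here. High-fat array 4 was left out because it did not correlate with any other array.

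The 5 genes and all gene lists were chosen with earlier results of these data known. Named genes are the 5, the 3 most alike to each, list members called in any comparison and, otherwise, the 2 with the largest diet difference. Other genes, named for their role or as the extremes of a list, were chosen after their values were seen. Same-numbered mice of different groups did not deviate together, so no block was used. The alternatives changed the arrays used, centring, scaling, filters, spot averaging, the groups in the fit, the block, the neighbouring rows and each array in turn. The number of arrays limits the precision.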

Additional observations from a re-analysis of the deposited data

How the results depend on the processing

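With the diet 175 genes were called (105 higher, 70 lower), with the fast 13 (3 and 10) and for fasted minus control 114 (77 and 37), and 896, 520 and 726 had an unadjusted p under 0.05. The diet count was 86 with values as deposited, 115 without the genes of lowest mean ratio, 25 with only 2 groups in the fit, 28 after subtracting neighbouring rows and 22 to 190 when 1 array was left out. The fast count was 3 with all 11 arrays, 24 under quantile normalization, 7 for genes with a value on all 10 arrays, 3 with at least 1 array per group, 49 with only 2 groups and 3 to 23 when 1 array was left out. The fasted minus control count was 25 with all 11 arrays, 198 as deposited, 10 with arrays scaled, 47 with only 2 groups, 29 after subtracting neighbours and 5 to 157 when 1 array was left out. The higher and lower split with the diet was 35 and 51 as deposited, 55 and 82 centred on spots filled on all arrays, 137 and 22 under quantile normalization, 101 and 24 with arrays scaled, 54 and 61 without those genes and 10 and 18 after subtracting neighbours. With the fast it was 11 and 5 as deposited. For fasted minus control it was 180 and 18 as deposited, 39 and 52 on commonly filled spots, 69 and 11 under quantile normalization and 8 and 2 scaled. As deposited, the median of all genes was 0.16 with the fast and 0.21 for fasted minus control, against -0.05 and 0.02.

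Kdr had -0.01 with the diet with all 11 arrays, 0.64 under quantile normalization, 0.60 scaled and 0.05 after subtracting neighbours. Kdr had 0.91, 0.70, 0.30 and 0.22 with the fast (all 11 arrays, as deposited, quantile, scaled) and 0.46 for fasted minus control after subtracting neighbours. Scaled, Eln had -0.08 with the fast and Col25a1 2.39 with the diet and -0.68 with the fast. Has3 had -1.01 with the diet under quantile normalization. Ndp had 1.30 and 1.44 with the diet and -1.63 and -1.87 with the fast (quantile, scaled). The cause was not tested. Under quantile normalization the fast difference was also below 0 for Col25a1 (-0.03) and Has3 (-0.05), and for Has3 scaled (-0.07) and without fasted array 3 (-0.02). In the other alternatives each of the 5 genes had the direction of the main value.

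The replicate numbers did not pair the mice: deviations from the group means correlated at -0.18 to 0.18 between same-numbered mice over 2262 genes. With the replicate block 118, 4 and 112 genes were called.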

Other observations

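Vtn, the liver-made plasma protein vitronectin, had ratio means of 1.68 ± 0.79 (SD, n = 4) in control, 0.66 ± 0.07 (n = 3) in high-fat and 1.67 ± 0.19 (n = 3) in fasted livers. The control ratios were 1.31, 2.86, 1.42 and 1.14, so control array 2 raised the control mean. All high-fat arrays lay below the other groups, yet neither difference passed by limma (-1.03 with the diet, adjusted p = 0.0827, and 1.01 with the fast, adjusted p = 0.227). The high-fat arrays enter both differences. Control and fasted arrays overlapped. Hapln1, which links hyaluronan to proteoglycans, had -0.44 with the diet and 0.50 with the fast (limma adjusted p = 0.164 and 0.283).

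Ttr, the hepatocyte gene for the thyroid hormone carrier transthyretin, fell by 1.38 for fasted minus control (limma adjusted p = 0.0216, called in 16 of 22 other analyses with 0.00733 to 0.239). The call was lost with all 11 arrays, under quantile normalization, with arrays scaled, after subtracting neighbouring rows and without fasted array 1 or 2.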
